A study of Mus musculus with 4 samples.

Results

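The genes described here are 6 matrix metalloproteinases (Mmp2, Mmp3, Mmp9, Mmp10, Mmp13 and Mmp14), 3 tissue inhibitors of metalloproteinases (Timp1, Timp2 and Timp3) and the serine protease gene Mcpt8, which makes 10 of the 23235 gene symbols in the processed RNA-seq files. They were found by their symbols, and all 10 were present once in each of the 4 libraries. The set was put together with earlier results of the same comparison in view, in which Mmp3 and Mcpt8 were seen to rise, so the genes count as selected on their FPKM in RDF and DMSO, and the differences between these groups are given for the 10 genes as a description with no test. The choice used no threshold.

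The libraries came from mouse haploid embryonic stem cells (haESCs), which carry a single set of chromosomes. The study's methods and figure legends name the line HG165, an androgenetic haESC line with a genome of paternal origin only, and the 4 libraries are of this 1 line. Cells of 2 libraries received the solvent DMSO, and cells of the other 2 received RDF, a mixture of Repsox, which inhibits TGF-β pathways, DMH1, which inhibits BMP4 pathways, and Forskolin, which activates adenylyl cyclase. The standard medium of the study contains serum and leukemia inhibitory factor. The doses and length of treatment of the sequenced cultures, and whether haploid cells were sorted before RNA extraction, are not given in the sources used here. The growth protocol in the labels names feeder cells, fibroblasts on which stem cells are grown, while the study's methods say that most experiments did without them and list exceptions among which RNA-seq is not. The labels number the replicates and do not say that they were separate cultures, so standard deviations and p-values measure the spread between these libraries, which may be technical. With 2 libraries in each group the smallest two-sided p of an exact permutation test is 0.333, and none was run.

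Matrix metalloproteinases are zinc proteases that are made as inactive proenzymes and, once their propeptide is removed, cleave collagens, proteoglycans and other extracellular proteins. Mmp3 and Mmp10 encode stromelysins, which cut a wide range of matrix proteins and activate other proenzymes. Mmp13 encodes a collagenase of fibrillar collagen. Mmp2 and Mmp9 encode gelatinases, which cut denatured collagen and basement membrane collagen. Mmp14 encodes a protease anchored in the cell membrane that activates the proenzyme of Mmp2. The Timp proteins bind the active site of metalloproteinases and block it, and Timp2 also takes part in the activation of the Mmp2 proenzyme on the cell surface. Mcpt8 encodes mast cell protease 8, a granule protease best known from mouse basophils, and belongs to a family of chymase and granzyme genes that is unrelated to the metalloproteinases. In cultured embryonic stem cells, metalloproteinases and Timps are secreted into the medium and the matrix beneath the colonies, and an RNA level is not a measure of the active enzyme.

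Promoter sequences were read from RefSeq for the mouse build GRCm38.p6, as the 250 bases before the annotated start of each gene, and 8 of the 10 genes had an entry there. Mmp2 and Mmp9 were not matched. The 3 promoters below are those of the stromelysin and collagenase genes, which lie in the same gene cluster on chromosome 9, and they are shown because each holds a match to the AP-1 motif TGANTCA, the binding motif of Fos and Jun proteins. The capitals mark that match, and the last base of each run lies next to the start of the gene. The positions are chr9:7445572-7445821 for Mmp3, chr9:7502092-7502341 for Mmp10 and chr9:7272264-7272513 for Mmp13, all on the plus strand. The promoter of Mcpt8, at chr14:56085198-56085447 on the minus strand, is shown beside them because Mcpt8 was the other gene with a large difference, and it has no capitals because it held no match.
Mmp3: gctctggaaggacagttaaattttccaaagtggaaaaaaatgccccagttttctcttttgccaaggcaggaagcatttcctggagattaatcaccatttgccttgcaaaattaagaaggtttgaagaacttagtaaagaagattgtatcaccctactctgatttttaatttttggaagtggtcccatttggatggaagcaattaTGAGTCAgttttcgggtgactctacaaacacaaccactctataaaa
Mmp10: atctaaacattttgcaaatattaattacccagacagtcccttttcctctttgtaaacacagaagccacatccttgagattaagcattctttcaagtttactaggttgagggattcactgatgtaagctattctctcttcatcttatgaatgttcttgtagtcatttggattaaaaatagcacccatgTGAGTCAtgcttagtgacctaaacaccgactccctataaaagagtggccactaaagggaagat
Mmp13: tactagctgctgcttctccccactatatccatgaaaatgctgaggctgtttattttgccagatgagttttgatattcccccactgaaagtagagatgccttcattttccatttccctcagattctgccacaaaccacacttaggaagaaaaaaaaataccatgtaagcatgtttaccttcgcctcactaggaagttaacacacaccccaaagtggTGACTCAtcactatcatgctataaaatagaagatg
Mcpt8: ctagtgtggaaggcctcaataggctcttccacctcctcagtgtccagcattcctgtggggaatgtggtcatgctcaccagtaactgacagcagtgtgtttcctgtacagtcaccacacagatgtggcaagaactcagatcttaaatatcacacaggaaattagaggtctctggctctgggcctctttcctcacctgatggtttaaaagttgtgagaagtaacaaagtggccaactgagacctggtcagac
The match was TGAGTCA in Mmp3, from 46 to 40 bases before the start, and TGAGTCA in Mmp10, from 63 to 57 bases before it. In Mmp13 it was TGACTCA, from 35 to 29 bases before the start. Both strands were searched, and 6.75% of the 32851 RefSeq promoters of this length held the motif. The windows of Mmp14, Timp1, Timp2, Timp3 and Mcpt8 had no match. The cAMP response element TGACGTCA was present in 1.55% of promoters of this length. The TGF-β inhibitory element, known from stromelysin promoters, was present in 4.15% of them. Both were found in 0 of the 8 windows. Sequence further upstream than 250 bases was not searched, so the search cannot tell whether either element lies there. A match describes the letters only, and binding of a factor was not measured.

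Expression was deposited as FPKM, fragments scaled to transcript length and to the depth of the library, so that levels can be compared between genes per length. The number of fragments is not in the files. It was estimated from low values of long genes with 1 transcript, which step by whole fragments, and came to between 10400000 and 13200000 fragments in a library. The fragments given below are whole numbers rounded from that estimate, and intervals around their ratios cover counting error only. These intervals add up the fragments of the libraries of a group, leave out the spread between libraries and are no test of RDF against DMSO. The embryonic stem cell label held, as all 12 marker genes of that cell type were present. Among them, Pou5f1 had 1285 and 1223 FPKM in DMSO and 1031 and 939 FPKM in RDF. Of these 12, limma called 5 higher and 4 lower in RDF at an adjusted p of 0.05 (13.3% and 8.28% of all genes tested, 21.6% together), with the largest differences in Dppa5a (-0.86), Zfp42 (0.85), Utf1 (-0.80) and Tdgf1 (-0.70) on the log2(FPKM + 1) scale. The adjusted p of Dppa5a was 0.0674 without RDF replicate 2. In bulk RNA, fewer cells of a type and less RNA per cell cannot be told apart.

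Among the 10 genes, the 3 inhibitors together outweighed the 6 metalloproteinases in the DMSO-treated haESCs, and Timp1 had the highest level. Timp1 stood at 106 ± 0.882 FPKM (SD, n = 2), a level that 3.96% of all symbols exceeded. Mmp2 and Timp2 followed with 10.5 ± 0.226 and 8.67 ± 0.0520 FPKM, and Mmp14 with 7.08 ± 0.922 FPKM (SD, n = 2 each). The values of Timp2 and Mmp14 did not overlap, but they were little further apart than the 7.73 and 6.43 FPKM of the Mmp14 replicates. Timp3 came next with 4.41 ± 0.361 FPKM and Mmp9 with 2.19 ± 0.186 FPKM (SD, n = 2 each). The other 4 genes were below 1 FPKM in DMSO, at 0.590 ± 0.137 for Mmp3, 0.267 ± 0.214 for Mcpt8, 0.220 ± 0.0279 for Mmp13 and 0.0522 ± 0.0739 for Mmp10 (SD, n = 2 each). The ranges of Mcpt8 and Mmp13 overlapped. In RDF-treated haESCs Timp1 was again the highest, and the order below it differed. Timp2, at 11.8 ± 1.12 FPKM, stood above Mmp2, at 10.1 ± 0.440 FPKM (SD, n = 2 each). Mmp3, at 7.70 ± 0.182 FPKM, stood above Mmp14, at 6.09 ± 0.00118 FPKM (SD, n = 2 each). The values of Mcpt8, at 4.21 ± 1.13 FPKM, overlapped those of Timp3, at 3.20 ± 0.443 FPKM (SD, n = 2 each), and Mmp9, Mmp13 and Mmp10 were below 1 FPKM.

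**Figure D1:**
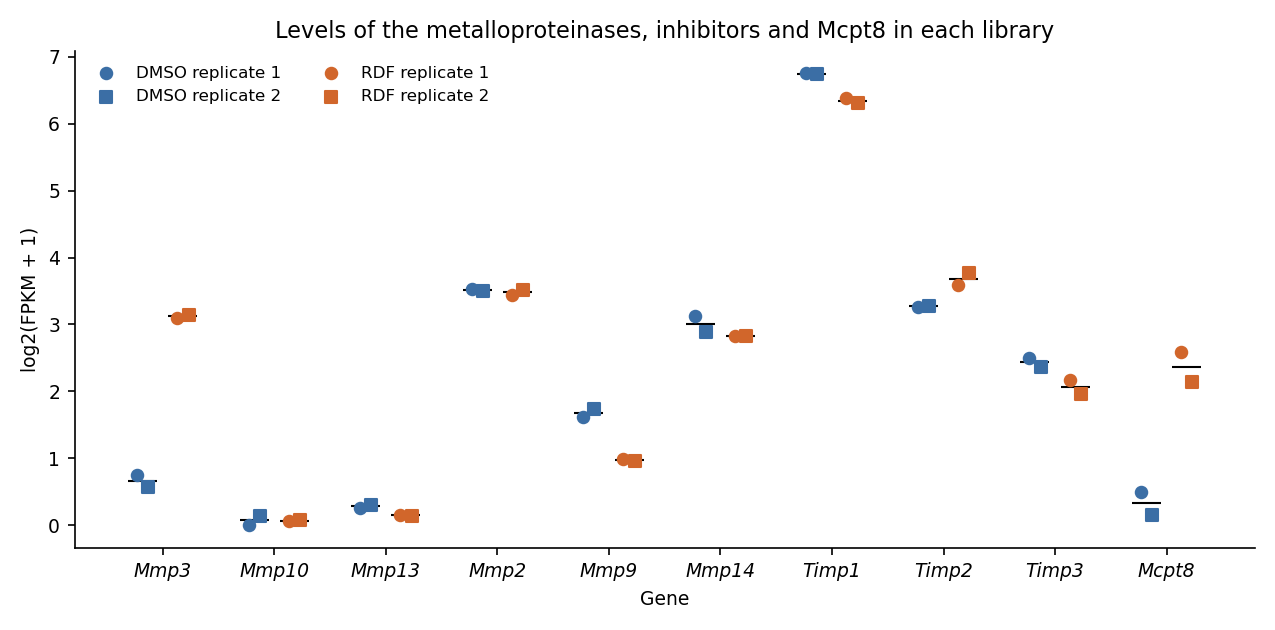
Level of each of the 10 genes in the 4 libraries, as log2(FPKM + 1) on the vertical axis, with circles for replicate 1, squares for replicate 2, blue for DMSO, orange for RDF and a bar at the mean of each pair. Mmp3 went from 0.687 and 0.493 FPKM to 7.57 and 7.83 FPKM and Mcpt8 from 0.418 and 0.115 FPKM to 5.01 and 3.41 FPKM, while Timp1 stayed the highest of the 10 in every library.

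The groups of 2 libraries did not overlap for 8 of the 10 genes, against 65.5% of all 11733 genes whose mean over the libraries reached 1 FPKM, the genes tested here, so a lack of overlap alone was common in these data. The 10 genes include Mmp10 and Mmp13, which did not reach that mean, so the sets are not quite alike. RDF was higher for Mmp3, Timp2 and Mcpt8 (37.1% of all genes) and lower for Mmp9, Mmp13, Mmp14, Timp1 and Timp3 (28.5% of all genes), and the values overlapped for Mmp2 and Mmp10. On the log2(FPKM + 1) scale, which understates changes of low genes, Mmp3 and Mcpt8 were more than 2-fold higher, against 0.631% of all genes (1.41% in either direction), and no gene of the set was more than 2-fold lower. The contrast is the one in which Mmp3 and Mcpt8 were noticed, and nothing is read from these shares. A mean of 1 FPKM was reached by 8 of the 10 genes. Mmp3 and Mcpt8 reached it only through the RDF libraries, and Mmp9 only through the DMSO libraries. The median difference over the 10 genes was -0.090 on that scale, beside 0.026 over all genes tested, and the median size of the difference was 0.38 beside 0.16. Between replicates of a group the median gap over all genes tested was 0.089 in DMSO and 0.087 in RDF. The central 95% of all genes tested lay between differences of -0.60 and 0.66, and Mmp3, Mcpt8 and Mmp9 lay outside it.

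**Figure D2:**
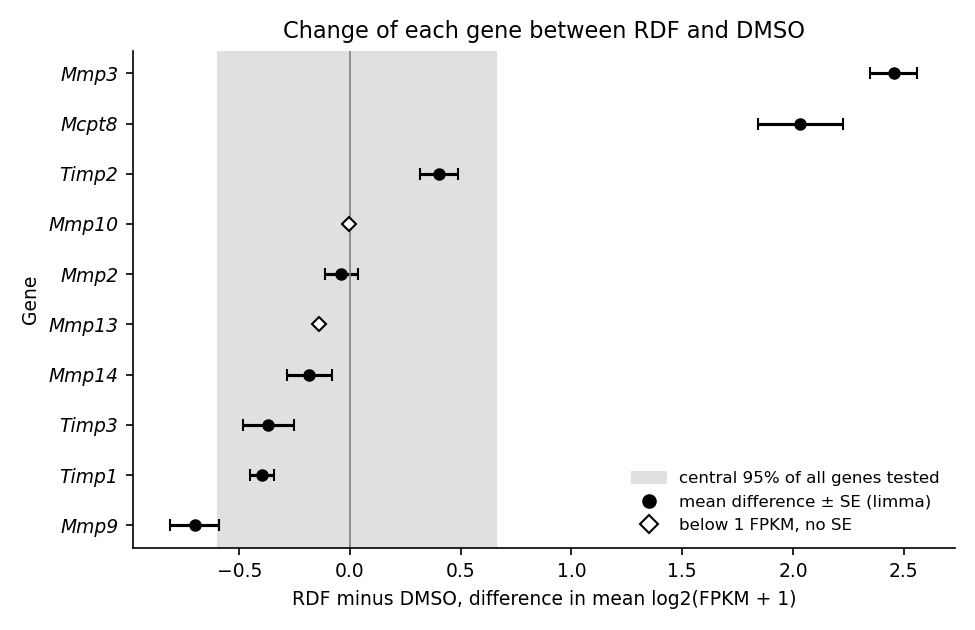
Difference in mean log2(FPKM + 1) between RDF and DMSO for each of the 10 genes, with bars of 1 standard error from limma, open diamonds for Mmp10 and Mmp13, which were below 1 FPKM and have no standard error, and a grey band for the central 95% of all genes tested. Mmp3 at 2.45 and Mcpt8 at 2.03 lie to the right of the band, Mmp9 at -0.70 lies to its left, and the other 7 genes lie inside it.

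Mmp3 (stromelysin-1, NCBIM37 chr9:7445822-7455972, plus strand, 10 exons) had 0.687 and 0.493 FPKM in the DMSO libraries and 7.57 and 7.83 FPKM in the RDF libraries. Both RDF values were far above both DMSO values, and the RDF replicates differed from each other by 0.043 on the log2(FPKM + 1) scale. The ratio of the mean FPKM was 13.1, and the difference in mean log2(FPKM + 1) was 2.45 (SE 0.107 from limma). These values rest on about 12 and 10 fragments in DMSO and 162 and 153 in RDF, a ratio per fragment sequenced of 12.9 (exact 95% interval 8.35 to 20.8). Of the 11733 genes tested, 10 had a larger rise. With a pseudocount of 0.1 in place of 1 the difference was 3.51, because the DMSO level of Mmp3 lay below the pseudocount of 1.

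The other stromelysin gene and the collagenase gene of the same cluster were hardly detected. Mmp10 (stromelysin-2, chr9:7502352-7510238, plus strand) had 0 and 0.104 FPKM in DMSO and 0.0457 and 0.0511 FPKM in RDF, which correspond to 0, 2, 1 and 1 fragments. Its fragment ratio of 0.899 has an exact 95% interval from 0.0652 to 12.4. The fragments were too few to place the ratio of Mmp10, and the upper bound is close to the ratio of Mmp3. Mmp13 (collagenase-3, chr9:7272514-7283333, plus strand) had 0.200 and 0.239 FPKM in DMSO and 0.116 and 0.0972 FPKM in RDF. The RDF values of Mmp13 were the lower ones, but the values rest on 5 and 7 fragments in DMSO and 4 and 3 in RDF. The fragment ratio of 0.524 had an exact 95% interval from 0.175 to 1.44, too wide to give a direction. How the study's processing divided fragments that match both Mmp3 and its paralog Mmp10 is not stated in the sources used here.

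The cluster on chromosome 9 that holds these 3 genes spans 427 kb and 10 metalloproteinase genes in the NCBIM37 annotation. Mmp3 was the 1 gene of the 10 whose mean reached 1 FPKM, and 5 genes (Mmp1a, Mmp8, Mmp27, Mmp20 and Mmp7) were at 0 in all 4 libraries. Mmp1a, which starts 18.3 kb from the start of Mmp3, was among them. Mmp12, the macrophage elastase gene, starts 101 kb on the other side and had 0.0321 and 0.111 FPKM in DMSO and 0.182 and 0.104 FPKM in RDF, from 1 to 10 fragments. Mmp1b had 1 fragment in each DMSO library and 0 in each RDF library. The high values of the cluster in RDF were thus those of Mmp3, with neighbours on both sides at or near 0.

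**Figure D3:**
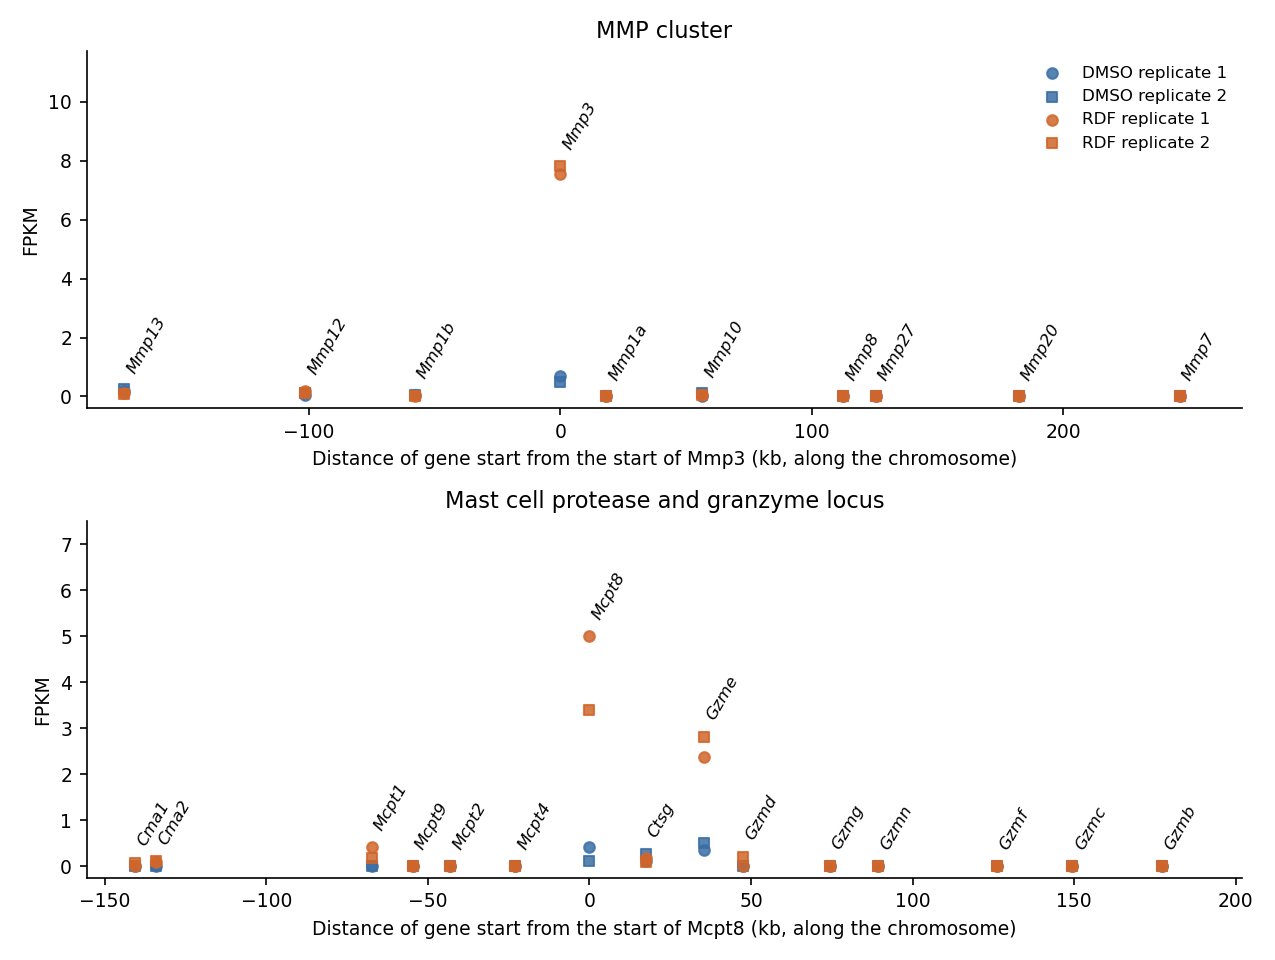
FPKM of each gene in each library against the distance of its start from the start of Mmp3 (upper panel, the metalloproteinase cluster on chromosome 9) and from that of Mcpt8 (lower panel, the mast cell protease and granzyme locus on chromosome 14), in kb along the chromosome, with blue for DMSO and orange for RDF. Mmp3 is the only gene above 1 FPKM in the upper panel, and Mcpt8 and Gzme are the only genes above it in the lower panel, in the RDF libraries.

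The gelatinase genes differed from each other. Mmp2 (chr8:95351227-95377316, plus strand, 13 exons) had 10.6 and 10.3 FPKM in DMSO and 9.84 and 10.5 FPKM in RDF. These values overlapped, and the difference of -0.039 on the log2(FPKM + 1) scale was smaller than its standard error of 0.0729. Mmp9 (chr2:164766280-164781350, plus strand, 13 exons) had 2.06 and 2.32 FPKM in DMSO and 0.983 and 0.936 FPKM in RDF. Both RDF values were below both DMSO values, at a ratio of the means of 0.439 and a log2 difference of -0.70 (SE 0.111). The values of Mmp9 rest on 64 and 86 fragments in DMSO and 39 and 34 fragments in RDF. Mmp14 (chr14:55050441-55060095, plus strand, 10 exons), which encodes the membrane activator of the Mmp2 proenzyme, had 7.73 and 6.43 FPKM in DMSO and 6.09 and 6.08 FPKM in RDF. The RDF values of Mmp14 were lower by a log2 difference of -0.18 (SE 0.101), which is less than the gap of 0.23 between its DMSO replicates.

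Of the inhibitors, Timp1 and Timp3 were lower in RDF and Timp2 was higher. Timp1 (chrX:20447292-20451861, plus strand, 6 exons) had 107 and 106 FPKM in DMSO and 82.5 and 78.3 FPKM in RDF, a log2 difference of -0.40 (SE 0.0542) and a ratio of 0.757. Its groups were far apart for their spread, with a replicate gap of 0.017 in DMSO and 0.074 in RDF on the log2(FPKM + 1) scale. Timp3 (chr10:85763117-85812251, plus strand, 5 exons), whose protein stays bound to the matrix, had 4.66 and 4.15 FPKM in DMSO and 3.51 and 2.88 FPKM in RDF, a log2 difference of -0.37 (SE 0.114). Timp2 (chr11:118162383-118217054, minus strand, 5 exons) had 8.63 and 8.71 FPKM in DMSO and 11.0 and 12.6 FPKM in RDF, a log2 difference of 0.40 (SE 0.0857). The RDF replicates of Timp2 and Timp3 stood further apart than their DMSO replicates, by 0.18 and 0.22 on that scale. All 3 inhibitor genes overlap another gene in the annotation. Timp1 lies within Syn1 and Timp3 within Syn3, both on the opposite strand, and Timp2 contains BC100451 on its own strand. Of the other 7 genes, only Mmp14 overlaps another, the predicted gene Gm11067, with no exon in common. Syn1 had 3.03 to 3.79 FPKM, Syn3 0.146 to 0.163 FPKM and BC100451 0.144 to 0.337 FPKM over the 4 libraries. Exons were shared in 1 case, that of 1 exon of Timp3 with Syn3, and whether the strand of the reads was used in the quantification is not stated in the sources used here.

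Added up per library, the 6 metalloproteinases came to 21.3 and 19.9 FPKM in DMSO and 24.6 and 25.5 FPKM in RDF, and the 3 inhibitors to 120 and 118 FPKM in DMSO and 97.0 and 93.8 FPKM in RDF. The inhibitor sum was 5.65 and 5.96 times the protease sum in DMSO and 3.94 and 3.69 times in RDF, and the groups did not overlap. Mmp3 held 3.23% and 2.48% of the protease sum in DMSO and 30.7% of it in each RDF library. Of the 6, Mmp2 remained the largest part, with 49.9% and 51.8% in DMSO and 39.9% and 41.1% in RDF. In DMSO it was followed by Mmp14. Mmp14 held 36.3% and 32.3% in DMSO and 24.7% and 23.9% in RDF, below Mmp3. Timp1 made up 88.9% and 89.1% of the inhibitor sum in DMSO and 85.1% and 83.5% in RDF, while the part of Timp2 went from 7.18% and 7.35% to 11.3% and 13.4%. The sums are of transcript levels, and their difference between groups rests on the same chosen genes. They leave out the rest of the metalloproteinase family. With Timp4, those other genes added up to 46.3 and 48.5 FPKM in DMSO and 39.3 and 39.7 FPKM in RDF. Among them, Mmp11, described below, stood above Mmp2 in every library. The sums, ratios and shares thus hold for the chosen genes and not for the family.

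**Figure D4:**
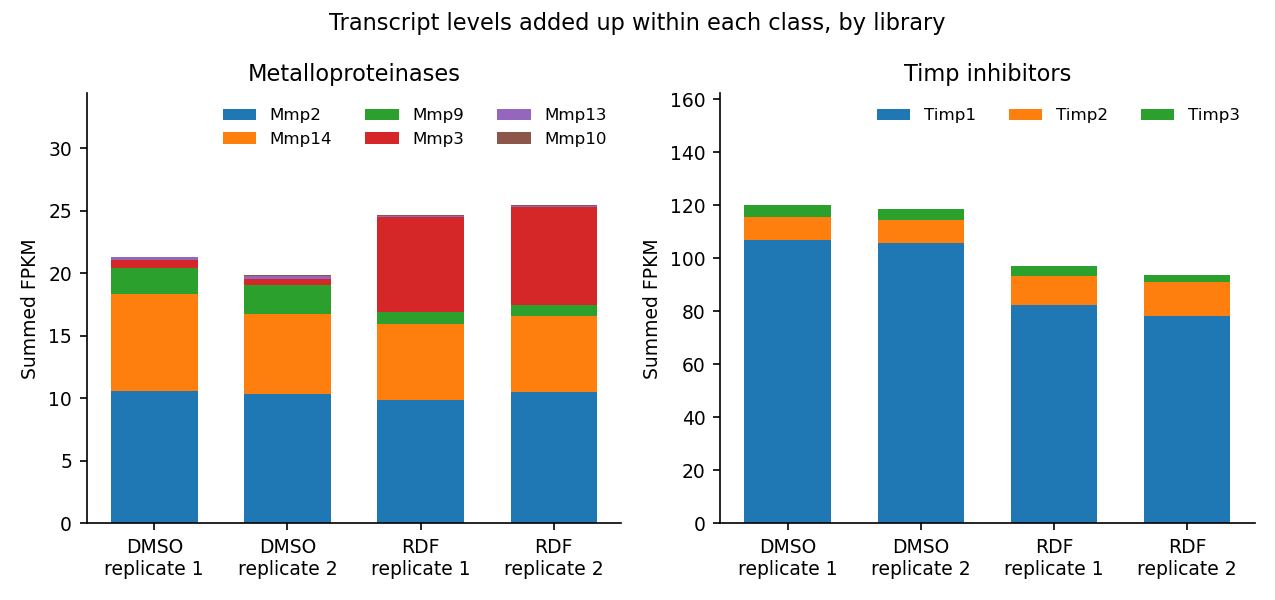
Summed FPKM of the 6 metalloproteinases (left) and of the 3 Timp inhibitors (right) in each library, with each gene as a coloured part of the bar and both axes from 0. The Mmp3 part grows from 3.23% and 2.48% of the protease bar in DMSO to 30.7% in both RDF libraries, and the inhibitor bar, nearly all Timp1, goes from 120 and 118 FPKM to 97.0 and 93.8 FPKM.

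Mcpt8 (NCBIM37 chr14:56701003-56704053, minus strand, 5 exons) had 0.418 and 0.115 FPKM in DMSO and 5.01 and 3.41 FPKM in RDF. All RDF values were above all DMSO values, but the replicates stood further apart than those of Mmp3, by 0.35 in DMSO and 0.45 in RDF on the log2(FPKM + 1) scale. The log2 difference was 2.03 (SE 0.193), and 12 of the genes tested rose by more. Its values rest on about 3 and 1 fragments in DMSO and 45 and 28 in RDF, a ratio of 16.4 with an exact 95% interval from 6.14 to 61.8. The difference ran from 1.81 without RDF replicate 1 to 2.26 without RDF replicate 2, and was 3.67 with a pseudocount of 0.1.

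Mcpt8 lies in a locus of 15 mast cell protease and granzyme genes over 321 kb, of which 8 were at 0 in all 4 libraries. Besides Mcpt8, Gzme, which encodes a granzyme known from cytotoxic lymphocytes, was the 1 gene of the locus whose mean reached 1 FPKM. Gzme had 0.360 and 0.511 FPKM in DMSO and 2.37 and 2.82 FPKM in RDF, and rose by 1.32 on the log2(FPKM + 1) scale (SE 0.128, adjusted p = 0.00259 from limma). Gzme passed the filter on low values only through the RDF libraries, and without that filter its adjusted p was 0.0156. It starts 35.4 kb from Mcpt8 and rests on 3 and 5 fragments in DMSO and 24 and 26 in RDF. Mcpt1 had 0 fragments in both DMSO libraries and 5 and 2 in the RDF libraries, and Ctsg, which lies between Mcpt8 and Gzme, had from 1 to 3 fragments in every library. How fragments that match several genes of this family were divided is not stated in the sources used here.

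The genes that define mast cells and basophils were for the most part not seen. Of 16 marker genes, 10 were at 0 in all 4 libraries, including Fcer1a and Ms4a2, which encode chains of the IgE receptor, and Cpa3, Tpsb2, Tpsab1, Prss34, Il4, Cd200r3, Mcpt2 and Mcpt4. The sum of the 16 was 19.3 to 20.3 FPKM in DMSO and 32.0 to 35.2 FPKM in RDF, nearly all of it from Kit and Gata2, which embryonic cells also express. Kit rose by 0.80 (adjusted p = 0.00231 from limma) and Gata2 by 0.56 (adjusted p = 0.00923), the latter with an adjusted p of 0.0639 without RDF replicate 2. Il1rl1, named after its values were seen, was below the filter on low values with 0.157 and 0.169 FPKM in DMSO and 1.62 and 1.44 FPKM in RDF. Hdc, also below the filter, went the other way, with 0.774 and 0.561 FPKM in DMSO and 0.273 and 0.405 FPKM in RDF. Of 13 macrophage and leukocyte markers, 4 (Lyz2, Tyrobp, Mpo and Elane) were at 0, and the 1 called of 3 tested was Laptm5, which fell by 0.47 (adjusted p = 0.0109 from limma, and 0.0574 without RDF replicate 1). The sum of these 13 was 171 to 172 FPKM in DMSO and 131 to 151 FPKM in RDF.

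The rest of the metalloproteinase family, with Timp4, was listed with earlier results of these data known. It leaves out the chosen genes, Mmp3 among them, so its counts depend on that choice. It was examined as 18 genes. Of these, 5 were at 0 in all libraries, 4 were tested, 0 were called higher and 1 was called lower by limma at an adjusted p of 0.05, beside 13.3% and 8.28% of all genes tested. At an unadjusted p of 0.05 the count higher was 1 and the count lower 1. The gene called was Mmp11 (stromelysin-3), which had 27.1 and 30.6 FPKM in DMSO and 19.4 and 20.4 FPKM in RDF and fell by 0.51 on the log2(FPKM + 1) scale (SE 0.0772, adjusted p = 0.00883). Without RDF replicate 1 its adjusted p was 0.0726, and without RDF replicate 2 it was 0.0642. The median difference of the 4 tested genes was -0.095, beside 0.026 over all genes tested. Mmp11 had a higher level than any of the 6 metalloproteinases of the set. In the related ADAM and ADAMTS families, 0 of 7 and 0 of 5 tested genes were called by limma, and 3 and 1 were below an unadjusted p of 0.05. Their most abundant genes were Adam15, with a difference of -0.19 (adjusted p = 0.109 from limma), Adam9 (0.024, adjusted p = 0.804), Adamts14 (-0.070, adjusted p = 0.643) and Adamts1 (0.20, adjusted p = 0.195). The sign of the Adam9 difference turned with the scaling, to -0.0077 under median-ratio scaling of the libraries.

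The plasminogen activator system, whose product plasmin can activate metalloproteinase proenzymes, was examined with 6 tested genes reported here. Of these, 3 were called higher and 1 lower, beside 13.3% and 8.28% of all genes tested, with a median of 0.28 beside 0.026 over all genes tested. Serpine2, which encodes an inhibitor of plasminogen activators, had 6.57 and 8.05 FPKM in DMSO and 12.98 and 13.22 FPKM in RDF and rose by 0.77 (SE 0.101, adjusted p = 0.00604 from limma). Plat, the gene of tissue plasminogen activator, rose by 0.49 (adjusted p = 0.0183), and so did Plaur, the gene of the urokinase receptor (0.48, adjusted p = 0.0105). Serpinh1, which encodes a collagen chaperone and no protease inhibitor, fell by 0.52 (adjusted p = 0.00623). Plg, the gene of plasminogen itself, was at 0 in 3 libraries and had 0.0284 FPKM in RDF replicate 2. Without RDF replicate 1 the adjusted p rose to 0.0571 for Serpine2, 0.0559 for Serpinh1, 0.0612 for Plaur and 0.0780 for Plat, and without RDF replicate 2 to 0.0633 for Serpine2 and 0.111 for Plat, whose adjusted p was also 0.0583 without DMSO replicate 1 and 0.0539 without the filter on low values. Of the 4 calls, 0 were left without RDF replicate 1 and 2 without RDF replicate 2.

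Genes that act on metalloproteinases at the cell surface or in the matrix were also measured, with no pattern read from their counts. Of 18 tested, 2 were called higher and 3 lower, beside 13.3% and 8.28% of all genes tested, with a median of 0.045. Pcolce2, which encodes an enhancer of procollagen processing, had 13.5 and 13.9 FPKM in DMSO and 4.58 and 4.76 FPKM in RDF and fell by 1.38 (adjusted p = 0.000561 from limma). Thbs1, whose product thrombospondin-1 binds Mmp2 and Mmp9, fell by 0.75 (adjusted p = 0.00320), and the tetraspanin gene Cd151 fell by 0.48 (adjusted p = 0.0106). Pcsk6, a proprotein convertase gene, rose by 0.43 (adjusted p = 0.0128) and the integrin gene Itgb3 by 0.43 (adjusted p = 0.0270). Without RDF replicate 1 the adjusted p was 0.0726 for Cd151 and 0.0743 for Pcsk6, and without RDF replicate 2 it was 0.0510 and 0.0889. Itgb3 lost its call without any 1 of the 4 libraries, with an adjusted p of 0.0614 to 0.132, and without the filter (0.0657). Furin, the convertase that processes the Mmp14 proenzyme, was at 17.1 to 17.6 FPKM in all libraries. Reck, a membrane inhibitor of metalloproteinases, had 1.39 to 1.55 FPKM, with a log2 difference of 0.046 (SE 0.108). Among the cathepsins, the lysosomal proteases, 2 of 9 tested genes were called higher and 2 lower, beside the same shares of all genes, and the largest difference was the fall of Ctsw by 1.03 (adjusted p = 0.00437, and 0.0166 without the filter, which it passed only through DMSO). Ctsc (-0.49), Ctsa (0.34) and Ctsb (0.27) were called in the full fit, but their adjusted p was 0.0680, 0.0586 and 0.0736 without RDF replicate 1 and 0.0895, 0.0813 and 0.121 without RDF replicate 2. Ctsb also lost its call without DMSO replicate 1 (0.0516) and without the mean-variance trend of the fit (0.0523).

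Transcripts of many of the matrix proteins that these enzymes cleave were lower in RDF, and the proteins themselves were not measured. Of 19 tested substrate genes, 11 were called lower and 2 higher, beside 8.28% and 13.3% of all genes tested, with a median of -0.41 beside 0.026 over all genes tested. Col1a1, which encodes a chain of the fibrillar collagen I, fell from 10.5 and 10.4 FPKM to 2.62 and 2.17 FPKM, a difference of -1.76 on the log2(FPKM + 1) scale (adjusted p = 0.000577 from limma). Col18a1, a basement membrane collagen gene, fell by 1.23 (adjusted p = 0.000332) and the proteoglycan gene Bgn by 0.90 (adjusted p = 0.00478). Dcn, which encodes the proteoglycan decorin, a known substrate of Mmp3, went the other way, from 1.74 and 1.40 FPKM to 6.56 and 7.51 FPKM (1.65, adjusted p = 0.00112). The other riser was Col4a2 (0.39, adjusted p = 0.0184), which lost its call without any 1 of the 4 libraries, with an adjusted p of 0.0505 to 0.108. Col1a1, Col1a2, Col3a1 and Dcn are also counted among the fibroblast markers below. Col4a1, Col4a2, Lama1 and Sparc are also counted among the endoderm markers, so these lists are not separate results.

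**Figure D5:**
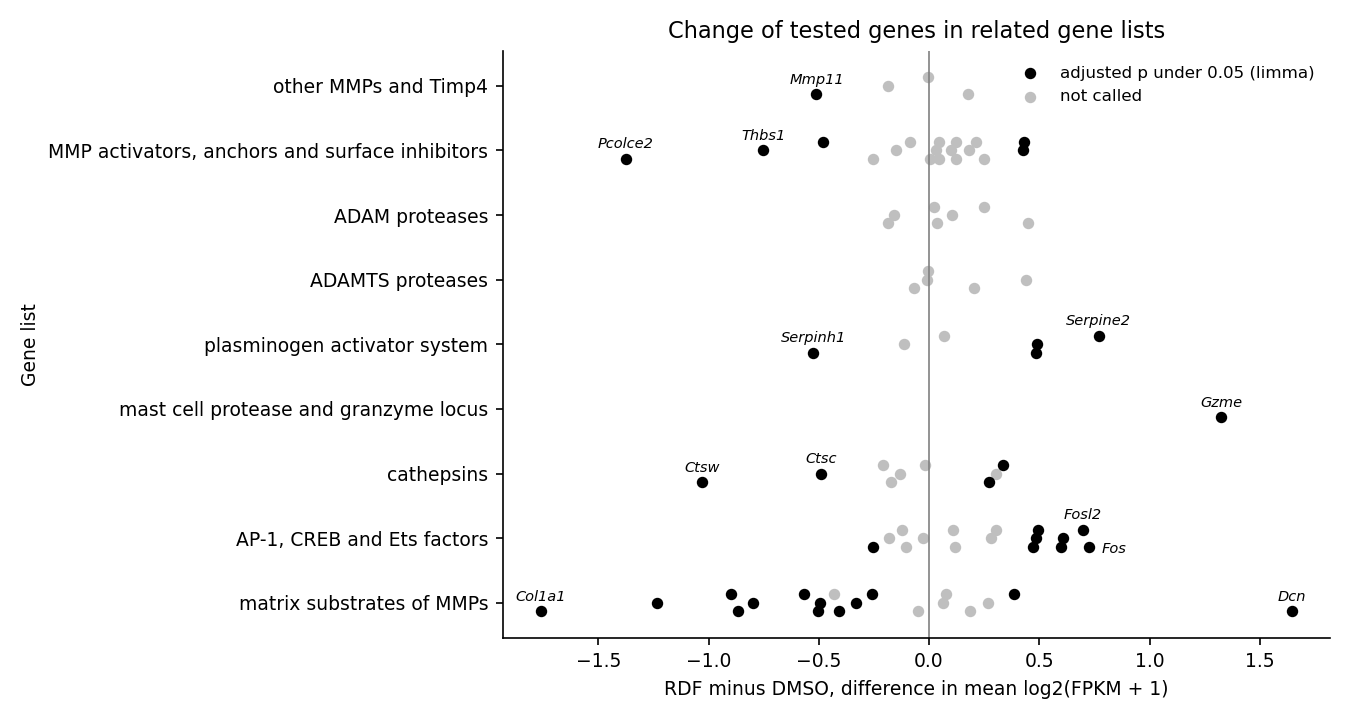
Difference in mean log2(FPKM + 1) between RDF and DMSO for every tested gene of 9 lists related to the metalloproteinases and Mcpt8, with 1 row a list, black points for genes with an adjusted p under 0.05 from limma and grey points for the rest, and up to 2 names a list. Col1a1 at -1.76 and Pcolce2 at -1.38 lie furthest to the left and Dcn at 1.65 and Gzme at 1.32 furthest to the right, while 0 ADAM or ADAMTS genes are black.

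Genes of AP-1, CREB and Ets factors were also measured as a single list, since AP-1 and Ets factors bind motifs in metalloproteinase promoters. Of 16 tested, 7 were called higher and 1, Etv5, lower, beside 13.3% and 8.28% of all genes tested, with a median of 0.29 beside 0.026 over all genes tested. Fos had 95.3 and 91.6 FPKM in DMSO and 153 and 157 FPKM in RDF and rose by 0.73 (SE 0.0536, adjusted p = 0.00129 from limma). Fosl2 rose by 0.70 (adjusted p = 0.00655), Fosl1 by 0.61 (adjusted p = 0.0170, and 0.0306 without the filter, which it passed only through RDF) and Fosb by 0.60 (adjusted p = 0.0106). Jun, at 59.9 to 65.4 FPKM, had a difference of -0.027 (SE 0.0641). Junb, 1 of the 7 called higher, rose by 0.47 (SE 0.0602, adjusted p = 0.00548 from limma). Jund had a difference of -0.18 (SE 0.0845) and was not called. Without RDF replicate 2 the adjusted p was 0.0564 for Fosl2, 0.0980 for Fosl1 and 0.0755 for Fosb, and without RDF replicate 1 it was 0.0916 for Fosl1. Etv5 lost its call without any 1 of the 4 libraries, with an adjusted p of 0.0566 to 0.145, and also without the filter (0.0564) or the mean-variance trend of the fit (0.0687). Of the 3 genes shown above with an AP-1 match, Mmp3 was higher in RDF, Mmp10 overlapped between the groups and Mmp13 was lower. Mmp10 and Mmp13 rest on 7 or fewer fragments a library, too few to give either gene a direction.

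The genes with the pattern most like that of Mmp3 over the 4 libraries were Stra8, Egr1 and S100a8, by the distance between log2(FPKM + 1) values taken relative to the DMSO mean of each gene. The distances were 0.44 for Stra8, 0.62 for Egr1 and 1.09 for S100a8, which had 0 FPKM in both DMSO libraries and 2.39 and 2.08 FPKM in RDF. For Mcpt8 they were Stra8 (0.33), Egr1 (0.50) and 2210409E12Rik (0.57). Egr1, an immediate early gene, had 19.0 and 18.5 FPKM in DMSO and 74.4 and 84.8 FPKM in RDF. With 4 libraries, such a distance orders genes mainly by the size of their difference.

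Markers of other cells that express metalloproteinases were measured as well, and their counts stand beside the 13.3% of all genes tested that were called higher and the 8.28% called lower. The 21 fibroblast markers added up to 76.2 and 77.2 FPKM in DMSO and 63.5 and 58.7 FPKM in RDF, and of 13 tested, 5 were called lower (Col1a1, Postn, Col1a2, Fbln2 and Thy1) and 2 higher (Dcn and Loxl1). Without RDF replicate 2 the adjusted p was 0.0598 for Thy1 and 0.192 for Loxl1, and that of Loxl1 was 0.110 without RDF replicate 1 and 0.132 without DMSO replicate 2, 0.1002 without the filter and 0.0629 with quantile normalization. Postn, which encodes the matrix protein periostin, had 5.16 and 3.96 FPKM in DMSO and 0.595 and 0.784 FPKM in RDF (adjusted p = 0.00164 from limma, and 0.0156 without the filter, which it passed only through DMSO). The 15 trophoblast markers added up to 48.2 and 45.3 FPKM in DMSO and 65.2 and 65.1 FPKM in RDF, with 4 of 8 tested genes called higher, of which Gata3 had the largest rise (1.08, adjusted p = 0.00320, and 0.0169 without the filter, which it passed only through RDF), and with Prl3d1, Prl3b1, Tpbpa and Ctsq at 0. The other 3 were Hand1 (0.70), Ascl2 (0.39) and Rhox6 (0.39), and without RDF replicate 2 their adjusted p was 0.0708, 0.0849 and 0.103. Ascl2 and Rhox6 also lost their calls without RDF replicate 1 (0.0576 and 0.0612), and Rhox6 without DMSO replicate 2 (0.0512). The 16 markers of primitive and parietal endoderm, cells that lay down basement membrane, added up to 387 and 375 FPKM in DMSO and 336 and 334 FPKM in RDF, with 3 called higher and 1 lower of 9 tested. Of these, Gata6 rose by 0.78 (adjusted p = 0.0428), and its adjusted p was 0.0532 without DMSO replicate 2, 0.177 without RDF replicate 1 and 0.171 without RDF replicate 2. Its call was also lost with a pseudocount of 0.1 (0.0502), without the filter (0.114), with median-ratio scaling (0.0505), with quantile normalization (0.0621) and without the trend (0.0613). The other genes called were Plat and Col4a2, higher, and Sparc, lower, whose adjusted p of 0.0234 was 0.109 without RDF replicate 1, 0.141 without RDF replicate 2 and 0.0623 without DMSO replicate 1. For Sparc it was also 0.0683 with quantile normalization and 0.0549 without the trend. The part of such cells in the values of Mmp3, Mcpt8 and the Timps was not tested. The growth protocol in the labels names feeder cells, while the study's methods do not list RNA-seq among the experiments with them.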

How the data were processed

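RNA was measured in 4 libraries, 2 from DMSO-treated and 2 from RDF-treated haESCs, grouped by their labels. The authors used 150 ng of RNA for each stranded mRNA library. The submitters' processing notes name TopHat2 2.0.14, Bowtie2 2.1.0, Cufflinks 2.2.1 and mm9, and the authors deposited FPKM, which already include the scaling to depth and transcript length, for 23235 symbols in each library. Reads were not analysed here, and how strand and fragments matching several genes were handled is not given in the sources used here. The deposited values were compared as log2(FPKM + 1) in 11733 genes, those reaching an average of 1 FPKM, with limma 3.58.1 in R 4.3.3 (eBayes with trend, two-sided, Benjamini-Hochberg adjustment over all genes tested, threshold 0.05). The limma step was tested on simulated data. Depth was estimated from genes with 1 transcript of at least 1500 nucleotides, with 175 nucleotides taken off the transcript length, and 41.5% to 46.2% of the low values were then no more than 0.1 from whole fragments (20% if spread evenly). Fragments behind a gene were computed with its longest transcript. Positions came from the NCBIM37 annotation (the assembly mm9), and promoters from RefSeq for GRCm38.p6, and no coordinates were converted between the builds.

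The 10 genes and the lists of related genes and cell type markers were chosen with earlier results of these data known. All 10 are named. From each other list the called genes with the 4 largest differences are named, or, with none called, the 2 of highest mean FPKM, and for Mmp3 and Mcpt8 the 3 genes nearest in pattern. Il1rl1, Hdc, Plg, Itgb3, Furin, Reck, Jun, Junb, Jund, Etv5, Fbln2, Thy1, Loxl1, Mmp25 and the neighbours in the 2 loci were named after their values were seen. The lists hold the other metalloproteinases, ADAM and ADAMTS proteases, the plasminogen activator system, activators and anchors, cathepsins, the granzyme locus, matrix substrates, AP-1, CREB and Ets factors, and markers of 6 cell types. An item of the plasminogen activator list is not reported here, and its counts leave it out. Alternatives were another pseudocount, other filters, median-ratio scaling, quantile normalization, no trend, a replicate block and leaving out each library in turn.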

Additional observations from a re-analysis of the deposited data

How the results depend on the processing

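The numbers of genes called were 1561 higher and 972 lower in RDF. Without the filter on low values they were 942 and 606, and 2 genes of the other metalloproteinases were called in place of 1, the second being Mmp25 (0.689 and 0.787 FPKM in DMSO, 0.126 and 0.0826 FPKM in RDF). When each library was left out in turn, the calls ran from 253 to 1121 higher and from 195 to 731 lower, from 0 to 1 among the other metalloproteinases and from 0 to 4 in the plasminogen activator system. The lowest counts were those without an RDF library, with 358 higher and 235 lower without RDF replicate 1 and 253 and 195 without RDF replicate 2, in fits that assume the remaining library to vary like the other group. Median-ratio scaling gave 1336 higher and 1179 lower. The labels do not pair the replicates, and deviations of same-numbered libraries from their group means had a Pearson r of 0.134 over 11733 genes. With 2 libraries a group both pairs give the same r. With the replicate number as a block the counts were 1651 higher and 1066 lower, with 1 call among the other metalloproteinases and 4 in the plasminogen activator system. Of the genes called in the text, Junb not looked at, only Loxl1 lost its call (adjusted p = 0.0536 from limma).

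The median difference of the 10 genes moved from -0.090 to -0.125 with a pseudocount of 0.1 and to -0.112 with quantile normalization. The number of genes whose groups do not overlap went from 8 to 9 with either scaling, where Mmp2 was added. Of 70 alternative values of the 10 genes, 5 moved by more than the replicate spread and 4 changed sign, in the 2 genes whose groups overlap. Mmp2 (-0.039) stood at 0.0013 without RDF replicate 1. Mmp10 (-0.0035) stood at 0.053 with a pseudocount of 0.1, 0.068 without DMSO replicate 2 and 0.00027 without RDF replicate 1. With a pseudocount of 0.1, Mmp9 stood at -1.11 and Mmp13 at -0.63. Of 536 alternative values of 50 other named genes, Junb and Jund not among them, 458 kept direction and call, 70 lost the call and 8 changed sign. Those were Adam9 (-0.0077 with median-ratio scaling and -0.027 with quantile normalization, from 0.024), Furin (-0.028 and -0.040 with the same scalings, and from -0.016 to 0.023 when each library was left out, from 0.0032) and Jun (from -0.078 to 0.023 when each library was left out, from -0.027), all with no call. Depth limits Mmp10, Mmp13 and the DMSO level of Mcpt8, which rest on 7 or fewer fragments a library. Where no cause is named, the cause was not tested.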
